A study of Mus musculus with 6 samples.

Results

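The genes described were 9 that encode the regulatory proteins of the thin filament and the scaffold of the thick filament: the troponin subunits *Tnnt2*, *Tnni3*, *Tnnc1* and *Tnni1*, the tropomyosin *Tpm1*, the myosin-binding protein *Mybpc3*, the giant spring protein *Ttn* (titin) and the M-band proteins *Myom1* and *Myom2*. They were chosen by symbol among 19057 named genes on a mouse bead array, and every probe annotated to a symbol was followed. Of the 9 genes, 8 had a probe, 23 probes in all, and *Tnnt2* had none in the annotation used. Of the 23 probes, 12 belonged to *Ttn*, 3 to *Tpm1*, 2 each to *Myom1* and *Myom2*, and 1 to each of the other 4 genes.

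RNA came from left ventricles of male C57/BL6 mice that had TAC (transverse aortic constriction, in which a suture around the aorta makes the left ventricle pump against a higher pressure) or sham surgery. Surgery was at 6 to 8 weeks of age and hearts were taken 3 weeks later by the labels, while the study's text gives a longer time. The labels give 4 groups, each array from its own mouse: 2 Tg TAC, 1 Tg Sham, 2 WT TAC and 1 WT Sham. Tg is *Kdm3a*-Tg, a mouse that carries a Flag-tagged cDNA of *Kdm3a*, whose product removes methyl groups from lysine 9 of histone H3, behind the αMHC promoter, which is active in heart muscle cells. The founder line behind these arrays is not given in the labels, and WT is wild type.

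In a sarcomere, calcium binds troponin C, and the troponin complex then lets tropomyosin roll away from the sites on actin that myosin heads use. Troponin I is the inhibitory subunit and troponin T ties the complex to tropomyosin. On the thick filament, myosin-binding protein C tunes how readily the heads engage, titin runs from the Z-disc to the M-band as a molecular spring, and the myomesins crosslink thick filaments at the M-band. Genes of all these parts are highly active in ventricular muscle, and mutations in several of them cause inherited cardiomyopathy.

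The windows around the transcription start (250 bases before to 50 after, RefSeq, GRCm38.p6) were in hand for 8 of the 9 members, and the other is *Myom2*. Those of 3 members are shown, because *Mybpc3* had the smallest adjusted p of the members between the genotype labels, *Ttn* the lower probes after TAC, and *Tnnc1* a signal near the highest of each array. They lie at chr2:91117894-91118193 (plus strand), chr2:76982498-76982797 (minus strand) and chr14:31208062-31208361 (plus strand). Capitals mark matches on either strand to the M-CAT box (CATTCC), the GATA box (GATAA), the TATA box (TATAAA), the MEF2 box or the CArG box.
Mybpc3: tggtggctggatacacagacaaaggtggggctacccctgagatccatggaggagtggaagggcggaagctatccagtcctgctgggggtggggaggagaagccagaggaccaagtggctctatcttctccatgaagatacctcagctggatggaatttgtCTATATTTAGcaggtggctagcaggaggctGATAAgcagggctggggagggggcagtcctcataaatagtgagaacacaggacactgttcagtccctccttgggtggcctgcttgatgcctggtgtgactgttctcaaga
Ttn: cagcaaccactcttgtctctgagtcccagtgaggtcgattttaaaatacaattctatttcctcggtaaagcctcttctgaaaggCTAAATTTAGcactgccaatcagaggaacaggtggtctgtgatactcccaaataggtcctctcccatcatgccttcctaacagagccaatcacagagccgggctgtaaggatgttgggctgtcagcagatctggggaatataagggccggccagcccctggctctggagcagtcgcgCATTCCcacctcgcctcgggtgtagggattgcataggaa
Tnnc1: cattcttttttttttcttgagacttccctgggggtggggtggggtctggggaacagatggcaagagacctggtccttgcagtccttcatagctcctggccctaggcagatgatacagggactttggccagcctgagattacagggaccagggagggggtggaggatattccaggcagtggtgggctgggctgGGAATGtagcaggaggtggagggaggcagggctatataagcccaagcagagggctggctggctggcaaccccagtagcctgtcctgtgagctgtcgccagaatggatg
The *Mybpc3* window held a MEF2 match 90 bases and a GATA match 60 bases before the start. That of *Ttn* held a MEF2 match 166 bases before the start and an M-CAT match 11 bases after it. That of *Tnnc1* held an M-CAT match, on the other strand, 58 bases before the start. Over all 10 windows of the members, M-CAT stood in 4, GATA in 4, MEF2 in 2, CArG in 1 and TATA in 0. Of 32851 windows of the same length, 14.7% held M-CAT, 25.4% GATA, 3.19% MEF2, 1.63% CArG and 13.6% TATA. An E-box (CANNTG) stood in 72.3% of them and is not marked. A match is a run of letters and says nothing of which factor binds there.

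Values below are log2 intensities after background correction and quantile normalization. A probe counted as detected on an array where its detection p, set against negative control beads, was below 0.01. Between 15643 and 16492 of 45281 probes were detected per array, and 17014 probes detected on at least 2 arrays were tested. Differences are log2 differences with the standard error (SE) from limma, and probes counted as called at a Benjamini-Hochberg adjusted p below 0.05 over those 17014. A level of one probe cannot be set against that of another, since each binds its target differently. In bulk tissue fewer cells of a type and less RNA per cell cannot be told apart.

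One probe of the targeted gene was at odds with 2 labels. *Kdm3a* probe ILMN_3118169 had non-normalized intensities of 34642 and 33540 in Tg TAC, 247 in the library labelled Tg Sham, 30614 and 229 in WT TAC, and 341 in WT Sham. On this probe the libraries labelled Tg Sham and WT TAC replicate 1 therefore went against their genotype, and groups below keep the labels. Of the other *Kdm3a* probes, ILMN_3043245 (238 to 301) and ILMN_2707895 (392 to 755) gave a signal above background on each array and showed no step of this kind, and ILMN_2556191 was not detected. Where these probes lie relative to the cDNA of the transgene is not known here. The 2 libraries also carry different surgery labels, so a wrong label there would bear on the TAC against Sham values too, which was not tested. All 11 ventricular muscle markers were measured, with a summed linear level of 225000 and 246000 in Tg TAC, 244000 in the library labelled Tg Sham, 224000 and 233000 in WT TAC, and 230000 in WT Sham. Of 10 skeletal muscle markers 4 were measured, and *Myh1*, *Myh2*, *Myh4* and *Tnnt3* were not. Atrial markers *Myl7*, *Sln* and *Bmp10* were not measured either. The median of the 3 atrial markers that were measured was highest in Tg TAC replicate 1 and the library labelled WT TAC replicate 1. Of these 3, *Myl4* did not follow, with 8.71 in Tg TAC replicate 2 and 8.41 in the library labelled WT TAC replicate 1.

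Of the 23 member probes, 16 were detected, each of them on all 6 arrays, and they covered 7 genes. The other 7 were the *Tnni1* probe, 1 *Tpm1* probe, 1 *Myom2* probe and 4 *Ttn* probes. Their intensities lay between 98 and 140, mostly below the lowest detected signals (129.7 to 138.9 by array). *Tnni1*, the slow skeletal troponin I that the fetal heart uses, had an intensity of 140 and 118 in Tg TAC, 109 in the library labelled Tg Sham, 123 and 110 in WT TAC, and 118 in WT Sham. It was detected only in Tg TAC replicate 1.

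**Figure D1:**
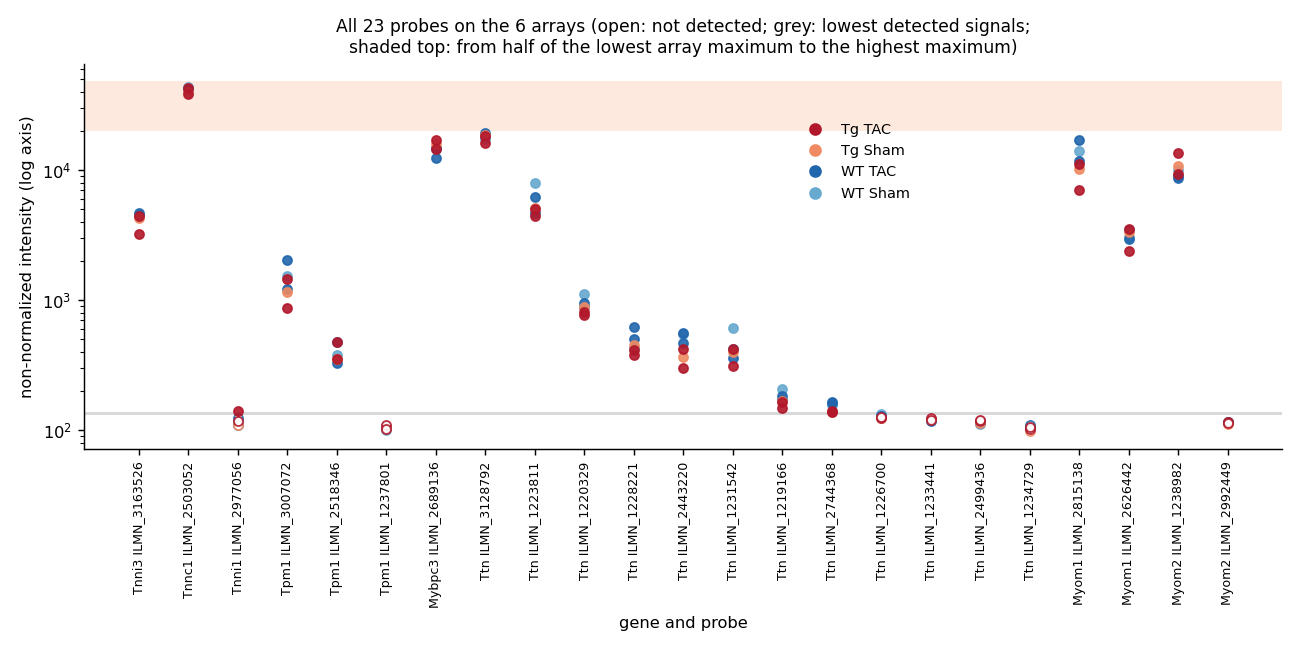
Non-normalized intensity (log axis) of all 23 member probes, 1 point per array, coloured by group. Filled points are detected and open points are not. Only *Tnnc1* lies in the shaded top range, and the 7 probes left out lie mostly below the grey band of the lowest detected signals.

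*Tnnc1*, troponin C of slow and heart muscle, lay near the highest signal of each array. Its probe ILMN_2503052 had non-normalized intensities of 42567 and 38647 in Tg TAC, 39780 in the library labelled Tg Sham, 42476 and 41565 in WT TAC, and 43593 in WT Sham. The highest signals on the 6 arrays lay between 40242 and 48325, so *Tnnc1* reached 90.2% to 100% of the maximum of its array. Its rank was 1 and 7 in Tg TAC, 3 in the library labelled Tg Sham, 3 and 2 in WT TAC and 3 in WT Sham. No other member reached 50% of the maximum on any array. After normalization *Tnnc1* was 15.41 and 15.25 in Tg TAC, 15.33 in the library labelled Tg Sham, 15.33 and 15.36 in WT TAC, and 15.33 in WT Sham. The SD over the 6 arrays was 0.05, against a median SD of 0.25 over all tested probes. Whether the probe was saturated was not tested, and the highest signal differed between arrays. Near saturation a change in RNA would move the signal less. Quantile normalization also gives a probe the value of its rank, so this small spread does not show an unchanged gene. The next highest shares of the array maximum were those of *Ttn* probe ILMN_3128792, at 36% to 46.2%, and of *Mybpc3*, at 28.6% to 40.1%.

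The difference between the genotype labels under pressure overload was examined first. Of 17014 probes 0% were called between Tg TAC and WT TAC, and 0% in every other comparison. At an unadjusted p under 0.05 limma gave 3 of 16 member probes, against 7.76% of all probes. The 3 were *Mybpc3* and *Myom2*, higher in Tg TAC, and *Ttn* probe ILMN_1228221, lower in Tg TAC. Over the 7 measured genes, each by its brightest probe, the median difference was -0.02, against 0.01 over all 9577 measured genes.

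*Mybpc3*, cardiac myosin-binding protein C, varied little within each genotype label. It was 14.13 and 14.02 in Tg TAC, 14.13 in the library labelled Tg Sham, 13.66 and 13.61 in WT TAC, and 13.66 in WT Sham. All 3 Tg values lay above all 3 WT values, and TAC and Sham values of a genotype lay close together. Tg TAC exceeded WT TAC by 0.44 ± 0.13 SE (limma adjusted p = 0.638), and by 0.27 ± 0.15 SE with median scaling. In raw intensity *Mybpc3* had 17054 and 14659 in Tg TAC, 16000 in the library labelled Tg Sham, 14773 and 12363 in WT TAC, and 14619 in WT Sham, where the ranges of the genotypes overlapped.

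*Myom2*, the myomesin of fast and adult heart muscle, had probe ILMN_1238982. It was 13.80 and 13.36 in Tg TAC, 13.51 in the library labelled Tg Sham, 12.90 and 13.11 in WT TAC, and 13.08 in WT Sham. All Tg values lay above all WT values, with the 2 Tg TAC mice 0.31 apart as an SD. The difference between Tg TAC and WT TAC was 0.57 ± 0.19 SE (limma adjusted p = 0.638). It was 0.35 ± 0.21 SE without Tg TAC replicate 1, 0.79 ± 0.21 SE without Tg TAC replicate 2 and 0.38 ± 0.20 SE with median scaling.

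*Myom1*, the myomesin found in all striated muscle, had 2 probes that ran apart. ILMN_2815138 was 13.47 and 12.99 in Tg TAC, 13.47 in the library labelled Tg Sham, 13.88 and 13.54 in WT TAC, and 13.62 in WT Sham. Every Tg value of this probe lay below every WT value, and Tg TAC replicate 2 was lowest (difference between Tg TAC and WT TAC -0.48 ± 0.21 SE, limma adjusted p = 0.666). ILMN_2626442 was 11.78 and 11.36 in Tg TAC, 11.84 in the library labelled Tg Sham, 11.46 and 11.52 in WT TAC, and 11.37 in WT Sham. Its groups overlapped, with a difference of 0.08 ± 0.19 SE. Which of the 2 probes better reads the gene as a whole was not tested. The brighter one stands for *Myom1* where 1 value per gene is used.

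**Figure D2:**
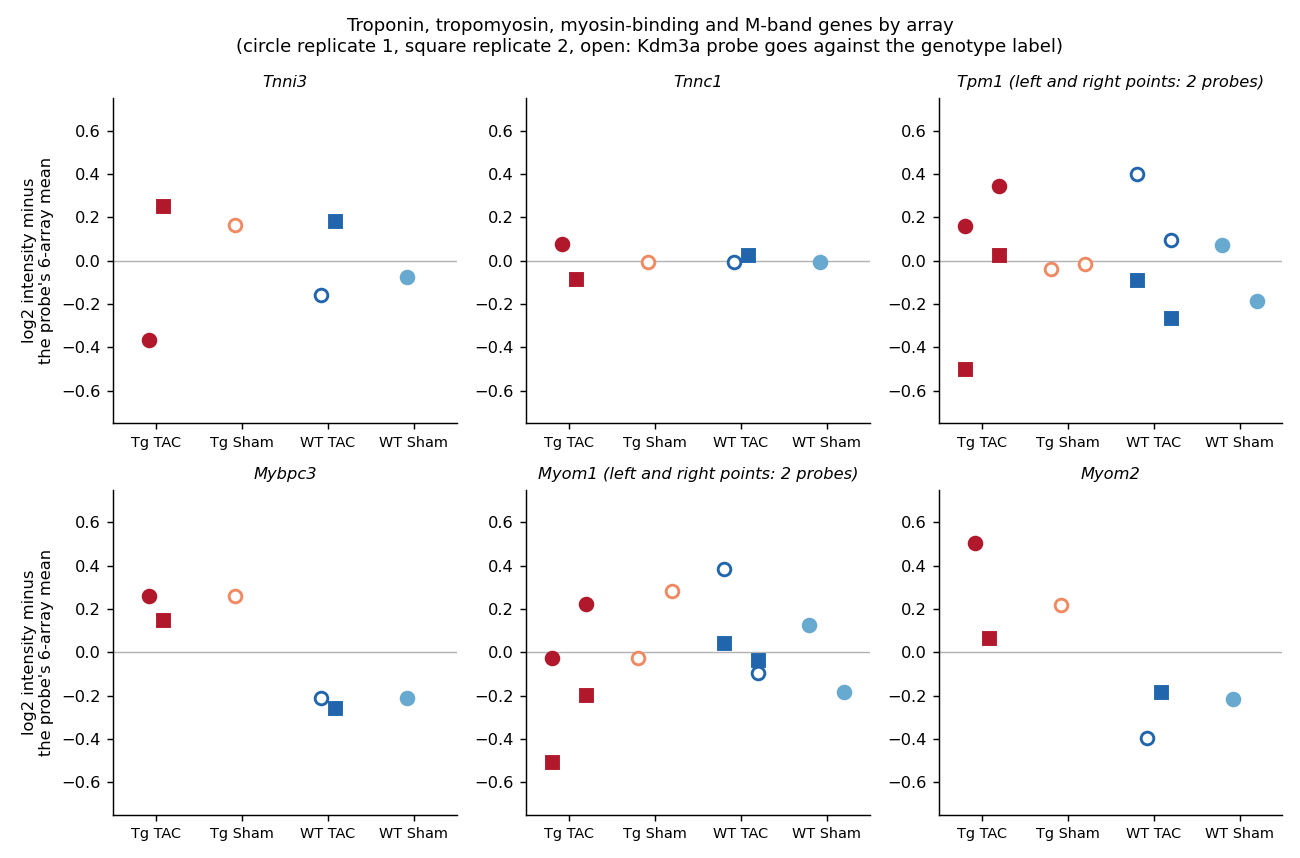
Log2 intensity of the troponin, tropomyosin, *Mybpc3* and myomesin probes, each minus its mean over the 6 arrays, by group. Points are single arrays, and open points are the libraries labelled Tg Sham and WT TAC replicate 1. *Mybpc3* and *Myom2* lie above the mean in all Tg arrays and below it in all WT arrays, and *Tnnc1* spans 15.25 to 15.41.

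The same split was then taken over both surgeries, with genotype and surgery as terms of one model, a comparison added after these values had been seen. It set the 3 Tg arrays against the 3 WT arrays and so uses the same TAC arrays again. At an unadjusted p under 0.05 limma gave 3 of 16 member probes, against 15.1% of all probes. Of the 16, 2 were higher in Tg without overlap, against 9.26% of all probes, and 3 were lower, against 9.66%. *Mybpc3* exceeded WT by 0.45 ± 0.09 SE (limma adjusted p = 0.18) and *Myom2* by 0.52 ± 0.14 SE (adjusted p = 0.21). The 3 lower probes were *Myom1* ILMN_2815138 (-0.37 ± 0.17 SE, limma adjusted p = 0.353) and *Ttn* ILMN_2443220 (-0.46 ± 0.16 SE, adjusted p = 0.269) and ILMN_2744368 (-0.34 ± 0.19 SE, adjusted p = 0.441).

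How the arrays were scaled bears on these differences. With median scaling in place of quantile normalization, the median of all probes moved to -0.15 between Tg and WT over both surgeries, -0.13 between Tg TAC and WT TAC, -0.22 between Tg Sham and WT Sham and 0.11 in the interaction. *Mybpc3* then differed by 0.24 ± 0.11 SE and *Myom2* by 0.30 ± 0.15 SE over both surgeries, still above that shifted median. The Tg and WT values of *Mybpc3* stayed apart and those of *Myom2* overlapped, with 13.20 in Tg TAC replicate 2 and 13.25 in WT Sham. The 3 lower probes stayed apart. Without the libraries labelled Tg Sham and WT TAC replicate 1, the genotype term sets the 2 Tg TAC arrays against WT TAC replicate 2 alone. There *Mybpc3* differed by 0.46, *Myom2* by 0.47 and *Myom1* ILMN_2815138 by -0.31. *Myom1* ILMN_2815138 differed by -0.20 without Tg TAC replicate 2 and by -0.24 without the library labelled WT TAC replicate 1. Of the 11 ventricular markers, 1 was higher and 1 lower in Tg without overlap, against 9.26% and 9.66% of all probes. The list as a whole did not separate the genotype labels. Several of its markers, such as *Myl2* at 15.14 to 15.25, lay near the level of *Tnnc1*. The limits given for *Tnnc1* therefore bear on these markers and on their summed level too.

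Between the 2 sham mice only single values can be compared. No member probe (0 of 16) differed by over 2-fold between the library labelled Tg Sham and WT Sham, against 2.7% of all probes. *Mybpc3* and *Myom1* ILMN_2626442 differed by 0.47 each, *Myom2* by 0.42, *Ttn* ILMN_1231542 by -0.42 and *Tnnc1* by 0. With median scaling, where the median of all probes stood at -0.22, *Mybpc3* differed by 0.19, *Myom1* ILMN_2626442 by 0.18, *Myom2* by 0.16, *Ttn* ILMN_1231542 by -0.69 and *Tnnc1* by -0.08. The library labelled Tg Sham showed no *Kdm3a* step, so its values are those of a label and not of a measured transgene.

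*Ttn* was read by 8 detected probes, of which ILMN_3128792 is annotated to a different RefSeq transcript from the other 7. Between Tg TAC and WT TAC, 5 of the 8 were lower and 3 higher, with a median of -0.15. ILMN_1228221 was 8.28 and 8.35 in Tg TAC, 8.66 in the library labelled Tg Sham, 8.77 and 8.76 in WT TAC, and 8.24 in WT Sham. Tg TAC lay below WT TAC by -0.45 ± 0.18 SE (limma adjusted p = 0.641), while WT Sham was as low as Tg TAC. ILMN_2443220 was 8.34 and 7.90 in Tg TAC, 8.31 in the library labelled Tg Sham, 8.59 and 8.63 in WT TAC, and 8.70 in WT Sham. The brightest probe, ILMN_3128792, was 14.24 and 14.17 in Tg TAC, 14.28 in the library labelled Tg Sham, 14.01 and 14.18 in WT TAC, and 13.92 in WT Sham. Tg TAC and WT TAC overlapped there, with a difference of 0.11 ± 0.13 SE, so the probes of this one gene did not move together.

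The response to pressure overload was examined over both genotypes. At an unadjusted p under 0.05 limma gave 3 of 16 member probes, against 6.52% of all probes. TAC was lower without overlap in 4 of 16, against 5.41% of all probes, and higher without overlap in 0 of 16, against 5.48%. All 4 were *Ttn* probes, so they read the same gene and are not independent of each other. Over the 7 genes by their brightest probe the median was -0.02, against 0.03 over all genes.

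The 4 probes shared 1 order, with WT Sham highest and the library labelled Tg Sham next to it. ILMN_1231542 was 8.34 and 7.98 in Tg TAC and 8.05 and 8.13 in WT TAC, against 8.47 in the library labelled Tg Sham and 8.89 in WT Sham. TAC differed by -0.55 ± 0.18 SE (limma adjusted p = 0.75). ILMN_1219166 was 6.08 and 5.97 in Tg TAC and 6.19 and 6.35 in WT TAC, against 6.46 in the library labelled Tg Sham and 6.73 in WT Sham (-0.45 ± 0.17 SE, limma adjusted p = 0.75). Without background correction, and in the authors' normalized table, the difference of ILMN_1219166 was -0.21 ± 0.08 SE (limma adjusted p = 0.757). In both probes the lower sham array stood close to the highest TAC array.

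ILMN_1223811 was 12.33 and 12.29 in Tg TAC and 12.34 and 12.22 in WT TAC, against 12.44 in the library labelled Tg Sham and 12.74 in WT Sham (-0.29 ± 0.12 SE, limma adjusted p = 0.75). ILMN_1220329 was 9.40 and 9.65 in Tg TAC and 9.47 and 9.69 in WT TAC, against 9.82 in the library labelled Tg Sham and 9.86 in WT Sham (-0.29 ± 0.14 SE, limma adjusted p = 0.757). Without WT Sham, the surgery term sets the Tg TAC arrays against the library labelled Tg Sham alone. ILMN_1231542 then differed by -0.31, ILMN_1219166 by -0.44, ILMN_1223811 by -0.13 and ILMN_1220329 by -0.30, so the first and the third were moved most by leaving out WT Sham. With median scaling the TAC and Sham values of all 4 probes overlapped, with differences of -0.53, -0.44, -0.35 and -0.27 in the order given, while the median of all probes stayed at 0. Without the libraries labelled Tg Sham and WT TAC replicate 1 the differences were -0.75, -0.38, -0.51 and -0.18. These set WT TAC replicate 2 against WT Sham, 1 array against 1, and are not values over both genotypes.

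**Figure D3:**
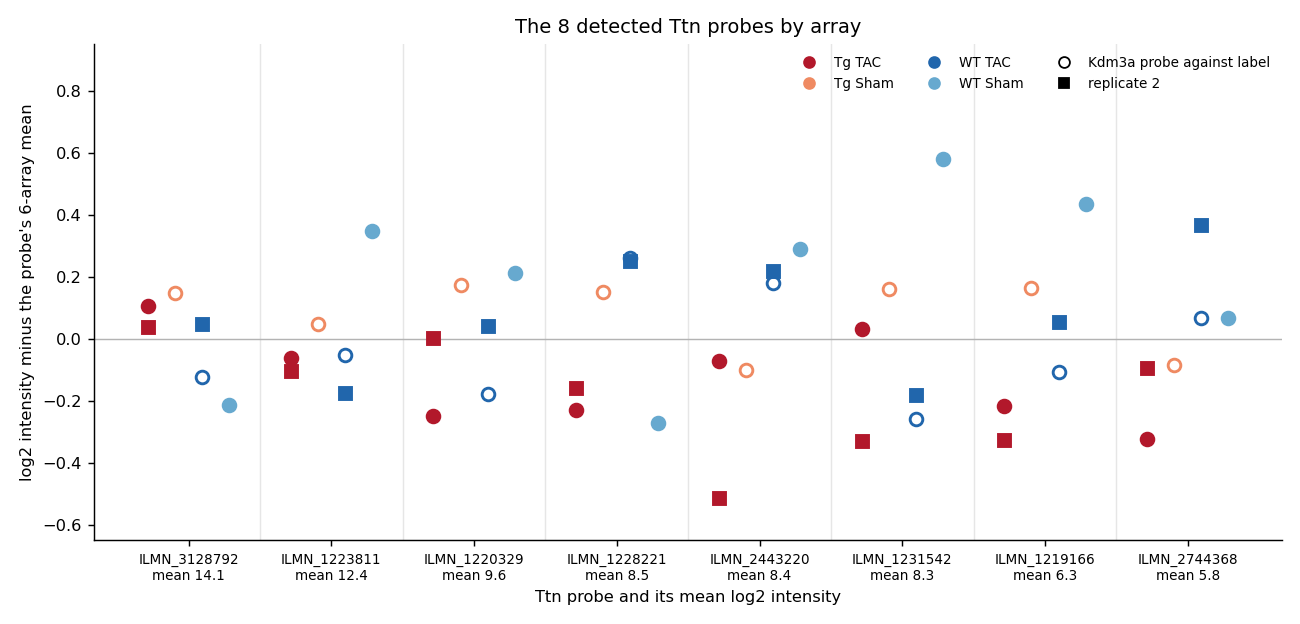
The 8 detected *Ttn* probes on the 6 arrays, as log2 intensity minus the mean of each probe over the arrays, in the order of their mean. Points are single arrays, and open points are the libraries labelled Tg Sham and WT TAC replicate 1. WT Sham is highest for ILMN_1223811, ILMN_1220329, ILMN_2443220, ILMN_1231542 and ILMN_1219166 and lowest for ILMN_3128792 and ILMN_1228221.

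The other 4 *Ttn* probes did not share this order. ILMN_2443220 was also highest in WT Sham, at 8.70, but the library labelled Tg Sham, at 8.31, lay among the TAC values (TAC difference -0.14 ± 0.17 SE). ILMN_3128792 and ILMN_1228221 were lowest in WT Sham, where they were 13.92 and 8.24. ILMN_2744368 was 5.48 and 5.71 in Tg TAC and 5.87 and 6.17 in WT TAC, against 5.72 in the library labelled Tg Sham and 5.87 in WT Sham. Its intensities, 138 to 164, lay just above the detection limit. Its Tg against WT difference over both surgeries, -0.34 ± 0.19 SE as given above, was -0.13 ± 0.07 SE without background correction and in the authors' normalized table (limma adjusted p = 0.443 in each). Without the libraries labelled Tg Sham and WT TAC replicate 1 it was -0.58, from the 2 Tg TAC arrays against WT TAC replicate 2 alone.

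By genotype, the TAC response of the members stayed below the threshold as well. Between WT TAC and WT Sham, 2 of 16 member probes had an unadjusted p under 0.05, against 2.18% of all probes. Both were *Ttn* probes, ILMN_1231542 (-0.80 ± 0.26 SE, limma adjusted p = 1) and ILMN_1223811 (-0.45 ± 0.17 SE, adjusted p = 1). Between Tg TAC and Tg Sham it was 0 of 16, against 2.89% of all probes. All 8 *Ttn* probes had a negative difference there, with a median of -0.24, and in 7 both TAC arrays lay below the single sham array, as in 33.3% of all probes. Both comparisons set 2 arrays against 1.

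The interaction asks if the TAC response differed between the genotype labels. Limma gave 1 of 16 member probes at an unadjusted p under 0.05, against 0.976% of all probes. This was *Ttn* ILMN_1228221, where TAC minus Sham was -0.34 ± 0.22 SE in Tg and 0.52 ± 0.22 SE in WT, a difference of -0.87 ± 0.31 SE (adjusted p = 1). *Mybpc3* had an interaction of -0.03 ± 0.22 SE and *Myom2* of 0.15 ± 0.33 SE. In 4 of 16 member probes the TAC arrays of the genotype labels lay on opposite sides of their sham array, against 12.7% of all probes. Over the 7 genes the median interaction was -0.21, against -0.02 over all genes. It was smaller in size with each library that could be left out, and its sign was not kept throughout. With median scaling it was also smaller in size, while the median of all probes moved to 0.11.

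**Figure D4:**
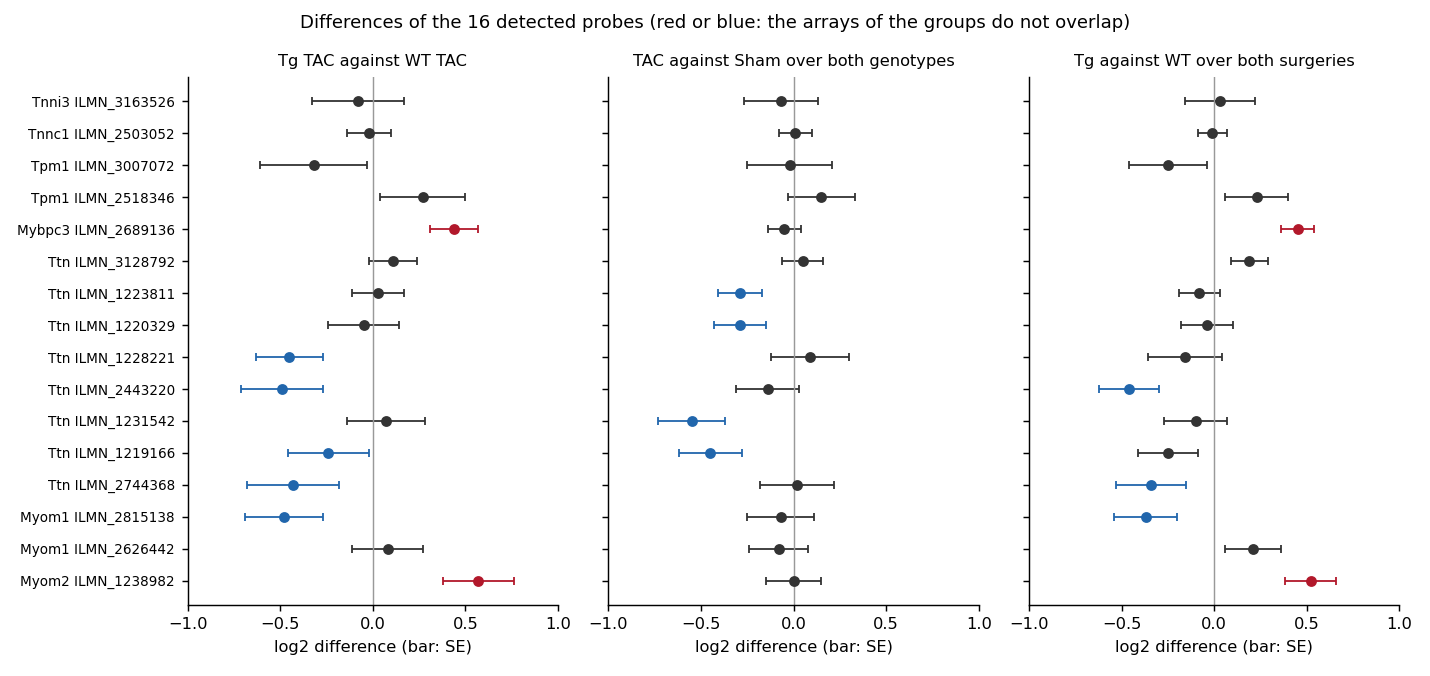
Log2 differences of the 16 detected member probes, with SE as bars, for Tg TAC against WT TAC, TAC against Sham over both genotypes, and Tg against WT over both surgeries. Red and blue points mark probes whose groups do not overlap, higher and lower. *Mybpc3* and *Myom2* stand at 0.45 and 0.52 in the right panel, and the blue points of the middle panel are 4 *Ttn* probes.

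The troponin and tropomyosin probes varied more between arrays of one group than between groups. For *Tnni3* and both detected *Tpm1* probes the TAC values went with the replicate number in either genotype label. Over the 16 member probes TAC arrays of equal replicate number deviated together (r = 0.66). The labels do not say what this number marks, and it cannot be told apart from the mouse or its cell content. *Tnni3*, cardiac troponin I, was 11.65 and 12.27 in Tg TAC, 12.18 in the library labelled Tg Sham, 11.86 and 12.20 in WT TAC, and 11.94 in WT Sham. The lowest and the highest value were both from Tg TAC. Within TAC the lower values were those of Tg TAC replicate 1 and the library labelled WT TAC replicate 1. The medians of the fibroblast and atrial markers were highest on these arrays, and the part of those cells in the *Tnni3* values was not tested. TAC differed from Sham by -0.07 ± 0.20 SE, and Tg from WT by 0.03 ± 0.19 SE, which became -0.17 ± 0.16 SE with median scaling.

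*Tpm1* ILMN_3007072 was 10.43 and 9.77 in Tg TAC, 10.23 in the library labelled Tg Sham, 10.67 and 10.18 in WT TAC, and 10.34 in WT Sham. It was higher in replicate 1 than in replicate 2 under TAC in either genotype, as were the fibroblast markers (median of 10, relative to each marker's mean, 0.58 and -0.40 in Tg TAC and 0.40 and -0.26 in WT TAC). Tropomyosin 1 is also made by smooth muscle cells and fibroblasts, and the part of such cells in this spread was not tested. *Tpm1* ILMN_2518346 was 8.56 and 8.24 in Tg TAC, 8.20 in the library labelled Tg Sham, 8.31 and 7.95 in WT TAC, and 8.03 in WT Sham. This probe too was higher in replicate 1 than in replicate 2 under TAC in either genotype. The 2 probes had Tg against WT differences of opposite sign over both surgeries, -0.25 ± 0.21 SE and 0.23 ± 0.17 SE, each with overlap.

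Other sarcomere genes were set beside the members, from lists chosen with earlier results of these data known. Called were 0 of 14 measured thin filament genes, 0 of 14 thick filament and M-band genes, 0 of 16 Z-disc genes and 0 of 4 ubiquitin ligases and related turnover genes, in each direction and each comparison. Between Tg and WT over both surgeries the median difference of these lists was 0.26, 0.07, 0.07 and 0.41, against 0.02 over all genes. Between TAC and Sham it was 0, -0.04, -0.06 and -0.21, against 0.03. Over both surgeries *Trim54*, which encodes a muscle ring finger protein, was 11.09 and 11.24 in Tg TAC, 10.95 in the library labelled Tg Sham, 10.51 and 10.69 in WT TAC, and 10.24 in WT Sham. Tg exceeded WT by 0.61 ± 0.12 SE (limma adjusted p = 0.18), without overlap. *Trim63*, which encodes a muscle ubiquitin ligase that binds titin near the M-band, differed by 0.49 ± 0.16 SE (adjusted p = 0.253) and *Fbxo32*, the ligase atrogin-1, by 0.33 ± 0.14 SE (adjusted p = 0.329), both without overlap. Of the 4 measured genes of this list 3 were higher in Tg without overlap, against 9.26% of all probes. These values are after quantile normalization, and median scaling moved the median of all probes to -0.15 in this comparison.

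Among thick filament genes *Mybphl*, a relative of *Mybpc3* best known from the atrium and conduction system, was 6.48 and 8.04 in Tg TAC, 4.84 in the library labelled Tg Sham, 5.54 and 4.81 in WT TAC, and 4.60 in WT Sham. Tg TAC lay 2.08 ± 0.55 SE above WT TAC (limma adjusted p = 0.638). In the library labelled Tg Sham, WT TAC replicate 2 and WT Sham, *Mybphl* was at the level of undetected member probes. An example is *Ttn* ILMN_2499436, at 4.50 to 4.98. This floor limits what the size of the *Mybphl* difference can show. The 3 measured atrial markers had a median, relative to each marker's mean, of 1.15 and -0.42 in Tg TAC, -0.52 in the library labelled Tg Sham, 0.94 and -1.07 in WT TAC, and -0.73 in WT Sham. The 3 did not run together in Tg TAC replicate 2, where *Mybphl* was highest. *Myl4* was 9.05 and 8.71 in Tg TAC and 8.41 and 6.75 in WT TAC. It was 7.38 in the library labelled Tg Sham and 7.1 in WT Sham. In Tg TAC *Nppa* was 15.28 and 12.46, and *Dkk3* was 8.61 and 6.43. The part of atrial cells in the *Mybphl* values was not tested. The Z-disc gene *Myot* (myotilin) was 6.85 and 6.34 in Tg TAC and 7.0 and 7.63 in WT TAC, against 8.50 in the library labelled Tg Sham and 8.20 in WT Sham, a TAC difference of -1.39 ± 0.31 SE (adjusted p = 0.75). *Acta1*, skeletal actin, ran between 8.32 and 14.53 on the 6 arrays, a range wider than that of any tested member probe (at most 0.91).

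The 3 members whose brightest probes varied most were *Myom2*, *Tpm1* and *Myom1*, and the genes most like each over the 6 arrays were listed as a description. Pearson's r is over 6 arrays that share their libraries, and the values for each member are the 3 highest of 2470 candidates. *Myom2* ran closest to *Scin* (r = 0.988), *Plk2* (0.97) and *P2rx5* (0.97). *Tpm1* ran closest to *Plat* (0.993), *Itpripl2* (0.99) and *Mndal* (0.987). *Myom1* ran closest to *Cnrip1* (0.993), *Arhgap25* (0.988) and *Rerg* (0.981).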

How the data were processed

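Biotin-labelled cRNA from the left ventricles of 6 mice was measured on Illumina bead arrays. The deposited intensity is a non-normalized value per probe. The submitters' processing notes name GenomeStudio 2011.1. Beside each intensity the authors deposited a detection p-value. The quantile-normalized intensity of another table from the authors, with column medians of 115.72 to 115.75, served as an alternative only.

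The limma package (3.58.1, in R 4.3.3) was used throughout. Normexp background correction took the control level from the detection p-values and used an offset of 16, before log2 transformation and quantile normalization. A probe was kept if 2 or more arrays gave a detection p below 0.01. Of 45281 probes, 34885 had 1 symbol in the platform annotation, 18 several and 10378 none, and probes with several were given no name. The brightest kept probe of a gene stood for it where 1 value per gene was needed. Group means over all 6 arrays left 2 residual degrees of freedom, and additive models of genotype and surgery left 3. With 1 array per sham group, the spread in the group fit comes from the TAC arrays. The number of arrays limits the precision. P-values were adjusted by Benjamini-Hochberg over all 17014 kept probes.

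The members and lists were chosen with earlier results of these data known, and the comparison of Tg with WT over both surgeries was added after seeing the data. Every detected member probe could be named, with up to 4 genes of each list by size of difference and the 3 genes most like each of 3 members. Near saturation meant at least 50% of the highest intensity on the array. Alternatives were median scaling, no background correction, the authors' normalized table, other filters, no intensity trend, 1 probe per gene, the methods' t-test, a replicate block, and leaving out libraries. Protein sequences and probe sequences were not used here.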

Additional observations from a re-analysis of the deposited data

Results flagged for a closer look

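In 4 of 16 member probes, against 12.7% of all probes, all TAC arrays of one genotype label lay on the opposite side of their sham array from those of the other label. The interaction was -0.87 ± 0.31 SE for *Ttn* ILMN_1228221, -0.26 ± 0.23 SE for *Ttn* ILMN_3128792, -0.27 ± 0.43 SE for *Ttn* ILMN_2744368 and -0.39 ± 0.33 SE for *Myom1* ILMN_2626442, with a limma adjusted p of 1 for each. Each rests on 1 sham array per genotype, and the library labelled Tg Sham is among them.

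*Tnni1*, outside the tested probes, was detected in Tg TAC replicate 1 alone, with an intensity of 140.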

How the results depend on the processing

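Of 16 member differences given with a direction, 225 values under the alternatives were computed and all 225 kept their sign. Other filters, no intensity trend and 1 probe per gene leave the difference itself unchanged, as does leaving out a library of a group not compared. No sign could change there, so the kept signs do not measure how firm a difference is. Called was 1 of the 225, *Mybpc3* in Tg against WT over both surgeries with a replicate block (0.45, limma adjusted p = 0.0302). Of 1264 member values given without a direction, 70 moved by more than the spread between replicates. The cause was not tested for any of these moves.

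Called probes among all tested numbered 0 in each comparison. With the replicate block they numbered 298 in Tg TAC against WT TAC, 6 in WT TAC against WT Sham, 347 in Tg TAC against Tg Sham, 30 in Tg Sham against WT Sham, 177 in TAC against Sham and 731 in Tg against WT, with 1 member among the last and 0 among the others. The block follows the animal numbers, with 444, 445, 446 and 454 (both sham mice among them) as one series and 17 and 18 as the other. TAC arrays of one series deviated together (r = 0.53 over 17014 probes and 0.66 over the 16 member probes), but the labels do not say what a series marks. Without the libraries labelled Tg Sham and WT TAC replicate 1, Tg against WT rests on the same arrays as Tg TAC against WT TAC. Both then set 2 Tg TAC arrays against WT TAC replicate 2 alone, so calls are not counted there. With no filter 4 probes were called in Tg against WT, with 0 members among them. Leaving out 1 library gave 0 to 2 in Tg TAC against WT TAC, 0 to 1 in WT TAC against WT Sham, in Tg TAC against Tg Sham and in the interaction, 0 to 4 in TAC against Sham and 0 to 14 in Tg against WT, the 14 without WT TAC replicate 2.

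Between Tg Sham and WT Sham the median over the 7 genes was 0.23, against 0.04 over all genes. With median scaling it became -0.01, where the median of all probes stood at -0.22. In the interaction the median over the 7 genes became -0.09 with median scaling, where that of all probes stood at 0.11. Leaving out 1 library, it ran from -0.04 to 0.09 in Tg TAC against WT TAC, -0.14 to 0.02 in the interaction, -0.08 to 0.08 in TAC against Sham and -0.02 to 0.20 in Tg against WT. The methods' t-test between Tg TAC and WT TAC gave 1295 probes at the unadjusted threshold, 2 of them members, and 0 after adjustment.

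In the main fits, which left 2 or 3 residual degrees of freedom, no member difference passed the adjusted threshold. With the replicate block *Mybpc3* passed it in Tg against WT, as given above. *Tnnc1* lay near the highest signal of each array and *Ttn* ILMN_2744368 near the detection limit, which limits what either can show.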
